A study of Mus musculus with 4 samples.

Results

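The cells described here are bone marrow progenitors in which no transcript of 10 cell division genes was counted. A kept cell of 4000 or more unique molecular identifiers (UMIs, each standing for 1 captured transcript) belonged to them when it held 0 UMIs of Mki67, Top2a, Ube2c, Birc5, Cdk1, Ccnb1, Ccnb2, Rrm2, Tk1 and Tyms. There were 2878 such cells among 8883 kept cells, and 5199 kept cells of the same minimum depth held at least 1 of these transcripts. They are called negative cells and other cells below. Negative describes the count of 10 genes and not a proven resting state, because any transcript can be missed in a shallow cell. The absence of the 10 genes and the minimum of 4000 UMIs chose the cells and are no result.

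The libraries came from lymphoid-primed multipotent progenitors (LMPPs), sorted by flow cytometry from marrow of C57BL/6 mice and captured with the 10x Genomics droplet system, with 1 library for each of 4 groups. Control mice always expressed RBPJ. RBPJ uninduced mice lacked it, and RBPJ 3 days induced and RBPJ 6 days induced mice had first lacked it and were then made to express it with doxycycline (2 mg/ml by intraperitoneal injection, then 1 mg/ml in drinking water). The labels name no allele, promoter, Cre driver, age or number of mice, and carry the same treatment text for all groups. With 1 library a group there was no test of any difference, effects of library and of group cannot be told apart, and the bracketed 95% intervals cover counting error only.

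A progenitor that divides copies its DNA in S phase and then passes through G2 and mitosis, and each stage has its own transcripts. Minichromosome maintenance (MCM) helicase subunits and nucleotide enzymes serve replication, whereas cyclin B with CDK1 and the spindle proteins serve mitosis. Between divisions a cell is in G1, or rests in G0, where these transcripts are low, and stem cells are known to rest for longer than the progenitors made from them. RBPJ partners the cleaved Notch receptor on DNA, and Hes1, which encodes a transcriptional repressor, is among the best known genes so activated.

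Negative cells made up a similar share of each library. They were 843 of 2543 control cells of 4000 or more UMIs (33.1%, 31.3 to 35.0), 922 of 2409 uninduced cells (38.3%, 36.3 to 40.2), 397 of 1183 cells at 3 days (33.6%, 30.9 to 36.3) and 716 of 1942 cells at 6 days (36.9%, 34.7 to 39.1). The uninduced and control intervals did not overlap, and the 3-day and control values lay within each other's intervals. Depth moved with membership, since negative cells had medians of 5720, 5431.5, 5714 and 5738.5 UMIs in the same order of libraries, against 10029.5, 9295, 9691 and 9853.5 in other cells. After every cell was thinned to 4000 UMIs, 40.1% (38.2 to 42.0), 44.0% (42.0 to 46.0), 41.0% (38.2 to 43.9) and 44.0% (41.8 to 46.2) held none of the 10 transcripts. Median genes per cell at 4000 UMIs were 1466, 1425, 1399 and 1396 in negative cells and 1514, 1478, 1471 and 1451 in other cells.

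The share of negative cells was 72.3% to 75.3% in cells of 4000 to under 6000 UMIs, 46.8% to 52.9% from 6000 to under 8000, 8.67% to 10.9% from 8000 to under 12000 and at most 1.18% above. Within each of these depths the 4 libraries lay closer to each other than neighbouring depths did. Just below the minimum depth, from 3000 UMIs up to it, 76.9% to 84.7% of cells held 0 of the 10 transcripts, and just above it, below 5000, 73.7% to 79.4% did. Cells one transcript short of membership, with a single UMI of the 10 genes, numbered 330, 282, 140 and 248. Droplets without a cell, taken as barcodes of 10 to 100 UMIs, held the 10 genes at 1181 to 1550 CPM (counts-per-million, the UMIs of a gene scaled to a common total), close to or below the 1533 to 1603 CPM of other cells. How many cells free RNA kept out of the negative group was not tested.

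**Figure D1:**
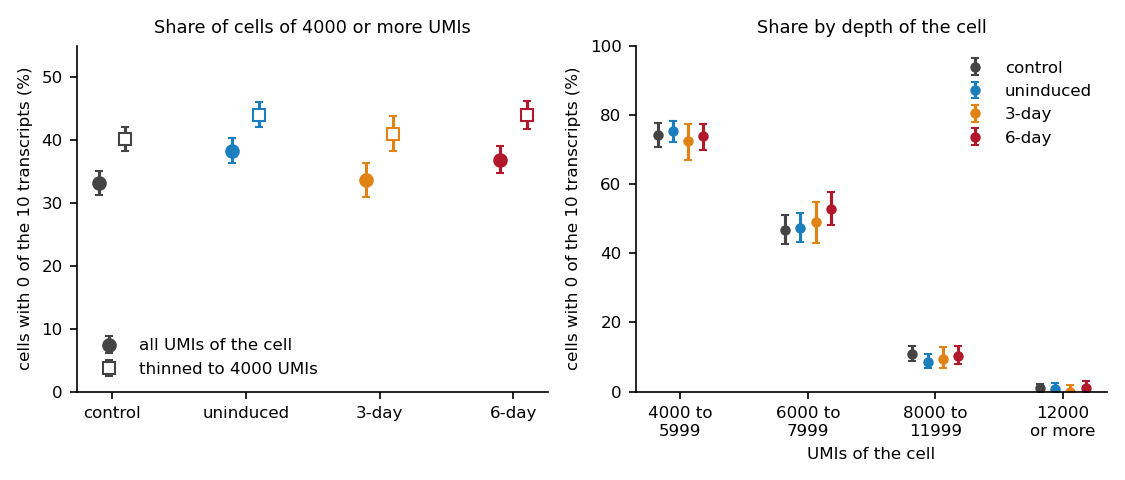
Share of cells with 0 of the 10 transcripts among kept cells of 4000 or more UMIs, in percent, with exact binomial 95% intervals. Left: filled circles use all UMIs of a cell and open squares each cell thinned to 4000 UMIs, by library. Right: the same share by UMIs of the cell, which runs from 72.3% to 75.3% in the shallowest range to at most 1.18% in the deepest in all 4 libraries.

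UMIs were summed over the negative and over the other cells of each library and scaled to CPM, and log2 ratios of (CPM + 1) were averaged over the 4 libraries. Of 5112 genes at 20 CPM or more in either mean, apart from the 10, 81 (1.58%) were at least 1.5-fold higher in negative cells in all 4 libraries and 315 (6.16%) at least 1.5-fold lower, 7.75% either way. The median ratio of all compared genes was -0.06. Cells sorted into groups by their own transcripts must differ in the transcripts that accompany them, so these counts describe the groups and were not tested.

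The 15 lowest genes were led by parts of the division machinery. Nusap1, a spindle microtubule protein (ENSMUSG00000027306, GRCm38 chromosome 2, 119618298 to 119651244, plus strand, protein coding), stood at 1.17 CPM in negative cells of the control library, 1.70 in uninduced, 1.67 at 3 days and 1.17 at 6 days. In other cells it stood at 194, 184, 181 and 193 CPM. These values come from sums over the cells of a library and show no spread among cells. Ccna2, the cyclin A of S phase and G2 (ENSMUSG00000027715, chromosome 3, 36564865 to 36572150, minus strand, protein coding), stood at 1.95, 1.14, 0.417 and 0.467 against 119, 102, 109 and 108 CPM. 2810417H13Rik stood at 8.76, 9.28, 12.1 and 7 against 474, 542, 467 and 474 CPM. The next 12 in order were Fam64a, Cdca3, Tpx2 and Pbk, then Hmmr, Ckap2l, Prc1 and Cdca8, then Esco2, Casc5, Aurkb and Kif11. Their mean log2 ratios ran from -5.47 in Fam64a to -4.47 in Kif11. Tpx2, Prc1, Kif11 and Hmmr act on the spindle, Aurkb and Cdca8 in the chromosomal passenger complex, Casc5 at the kinetochore and Esco2 on sister chromatid cohesion.

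On a list of 48 further G2 and mitosis genes, 48 were lower by 1.5-fold in all 4 libraries, beside 5.39% of the 9064 genes at the 5 CPM minimum used for lists, and their median log2 ratio was -3.53 beside -0.02 over those 9064 genes. At 4000 to 8000 UMIs alone, a range taken up again with the higher genes, 46 of them were lower and the median was -2.19. These genes travel with the 10 that chose the cells, so their lower level supports nothing further. Together they made up 817 to 856 CPM of negative cells and 6052 to 6240 CPM of other cells. DNA replication and S phase genes were less depleted. All 48 stood lower in each of the 4 libraries, 39 of them by 1.5-fold in all, and their median was -1.27 (33 and -1.01 at 4000 to 8000 UMIs). Their sum was 1560 to 1830 CPM in negative cells against 3902 to 4208 in other cells.

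Several licensing and repair genes therefore persisted. Mcm6, a helicase subunit loaded before replication, stood at 109, 107, 120 and 96.8 CPM in negative cells against 169, 156, 172 and 148 in other cells. Mcm2 had a mean log2 ratio of -0.53, Ung, the uracil glycosylase of base excision repair, -0.51, and Rfc2, a clamp loader subunit, -0.44. Pcna, the sliding clamp, had -1.10 and was found in 21.2% to 25.7% of negative cells thinned to 4000 UMIs, against 38.7% to 39.5% of other cells (29.6% to 36.1% against 64.2% to 66.8% without thinning). Rrm1, the partner of Rrm2 in ribonucleotide reductase, had -2.21. So negative cells held S phase transcripts and a reduced level of G2 and mitosis transcripts, and lacking cycling transcripts describes only the 10 genes of the rule. When Pcna, Mcm3, Mcm5, Mcm6, Ccna2, Cdc20, Cenpa, Hmgb2 and 2810417H13Rik together were also limited to 1 UMI in a cell, 6.65% to 8.51% of cells of 4000 or more UMIs met both limits.

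Histone cluster genes, whose transcripts build up in S phase, were lower by 1.5-fold in 25 of 32 measured members, with a median of -1.73, beside 5.39% of all genes at the list minimum. At 4000 to 8000 UMIs 13 of 32 were lower and the median was -0.83. Nucleotide synthesis genes were lower in 8 of 27, with a median of -0.51, and in 3 of 27 in that depth range, with a median of -0.32. Among 21 G1 cyclins, kinases and E2F factors, 5 were lower and 1, Mycn, was higher, and in that depth range 4 were lower and 0 higher. Ccne2, the S phase entry cyclin E2, stood at 4.67, 5.30, 4.17 and 3.50 CPM against 31.5, 27.0, 23.3 and 27.8. E2f1, which drives S phase genes, stood at 23.8, 18.2, 17.5 and 17.7 against 49.2, 50.8, 39.3 and 43.3 CPM. The D cyclins of G1 were near the other cells, with mean log2 ratios of 0.37 for Ccnd1, 0.31 for Ccnd2 and -0.47 for Ccnd3.

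Promoters of the lower genes were read because G2 and mitosis genes are known to carry a cell cycle homology region, a short element bound by the DREAM and MuvB complexes. Its letters TTTGAA were searched on both strands in the 300 bases from 250 before to 50 after each start in RefSeq (GRCm38.p6), where 39 of the 48 G2 and mitosis genes had a promoter. They occurred in 30 of 42 promoters of that list (71.4%), in 33.6% of 289 promoters of the lower genes, in 12.5% of 5094 promoters of all compared genes and in 17.9% of all 32851 promoters. The E2F letters TTTCCCGC or TTTGGCGC, which do not overlap that element, occurred in 12 of 40 promoters of the S phase list (30%), 11.1% of those of the lower genes, 3.83% of those compared and 1.56% of all. The S phase list held TTTGAA in 12.5% of its promoters and the G2 and mitosis list the E2F letters in 2.38%. A match is a run of letters and not a shown binding site. Below are 2 promoters of strongly lower mitosis genes with TTTGAA or its reverse TTCAAA in capitals, and 1 of a replication gene with the E2F letters in capitals on the reverse strand, each 5′ to 3′ on the strand of its gene. The Gins3 promoter also holds TTTGAA once, left in lower case.
Cdca3 (chr6:124829926-124830225, plus strand): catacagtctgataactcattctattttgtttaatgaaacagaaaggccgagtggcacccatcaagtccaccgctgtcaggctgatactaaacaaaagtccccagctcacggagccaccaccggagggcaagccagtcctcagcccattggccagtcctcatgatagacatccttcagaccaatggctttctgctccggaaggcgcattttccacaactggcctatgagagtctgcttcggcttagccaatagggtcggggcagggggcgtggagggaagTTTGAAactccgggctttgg
Ckap2l (chr2:129297163-129297462, minus strand): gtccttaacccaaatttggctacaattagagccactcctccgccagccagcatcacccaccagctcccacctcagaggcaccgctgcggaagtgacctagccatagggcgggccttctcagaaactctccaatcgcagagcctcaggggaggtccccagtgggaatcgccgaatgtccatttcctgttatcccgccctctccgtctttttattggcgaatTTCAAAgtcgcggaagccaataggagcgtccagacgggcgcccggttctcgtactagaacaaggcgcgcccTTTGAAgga
Gins3 (chr8:95633309-95633608, plus strand): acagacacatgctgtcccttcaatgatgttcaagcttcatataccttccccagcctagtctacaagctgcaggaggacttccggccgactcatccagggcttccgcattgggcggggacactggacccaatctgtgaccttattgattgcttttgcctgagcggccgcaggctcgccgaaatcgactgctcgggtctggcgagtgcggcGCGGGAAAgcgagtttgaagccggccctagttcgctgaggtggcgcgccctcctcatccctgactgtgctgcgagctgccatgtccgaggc
Cdca3, a mitotic entry protein, had a mean log2 ratio of -5.01, Ckap2l, a spindle protein, -4.86, and Gins3, a subunit of the replicative helicase, -1.60.

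The 15 highest genes were of mixed kinds. They were Gm43643, Tcp11l2, Wfdc18, Ltb and Wfdc17, then Sytl1, Zfp467, Ccl3, 4833407H14Rik and Socs3, then Gm19331, Mycn, Dlgap4, Ccl4 and Armc3. Wfdc17, a secreted whey acidic protein of leukocytes (ENSMUSG00000069792, chromosome 11, 83703991 to 83706268, plus strand, protein coding), stood at 693, 664, 573 and 871 CPM in negative cells against 237, 247, 195 and 242 in other cells. Gm43643 stood at 53, 50.9, 35.9 and 58.3 CPM against 10.3, 10.7, 10.6 and 12.4, which gave the highest mean log2 ratio, 2.05. Mycn, a MYC family transcription factor known in early progenitors (ENSMUSG00000037169, chromosome 12, 12936093 to 12941914, minus strand, protein coding), stood at 61.1, 60.8, 48.4 and 63.2 CPM against 25.7, 27.2, 18.8 and 32.8. Ltb, the lymphotoxin beta cytokine, stood at 140, 140, 110 and 139 CPM against 42.3, 48.1, 36.4 and 42.9. Each value comes from a sum over the cells of a library, for genes picked as highest, so it shows no separation of single cells. Ccl3 and Ccl4, inflammatory chemokines, stood at 709, 879, 437 and 1073 against 271, 363, 225 and 407 CPM and at 608, 787, 512 and 878 against 251, 374, 265 and 360, and Socs3, a cytokine feedback inhibitor, had a mean log2 ratio of 1.20.

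Fewer genes were higher in a narrower depth range. Among cells of 4000 to 8000 UMIs alone, where medians were 5304 to 5609.5 in negative and 6367 to 6592 in other cells, only 2 genes, Gm43643 and Sytl1, were 1.5-fold higher in all 4 libraries, and 110 were lower. All 81 higher genes kept a mean ratio above 0 there and 70 of them stood higher in each library, but their median log2 ratio was 0.41 in place of 0.92. The 315 lower genes had a median of -0.89 in place of -1.31, with 304 lower in each library and 104 by 1.5-fold. Wfdc17 had a mean of 0.73 in that range, Mycn 0.60, Ltb 0.53, Ccl4 0.21 and Armc3 0.16. The part of depth in the differences was not tested further.

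Genes that slow division were higher in part. Of 30 CDK inhibitors and antiproliferative genes, 5 were 1.5-fold higher, beside 1.65% of all genes at the list minimum, and 2 lower, with a median of 0.24. The 5 were Rgs1 and Rgs2, regulators of G protein signalling, Btg1 and Btg2, which are antiproliferative cofactors of mRNA decay, and Mxd4, an antagonist of MYC. Btg2 stood at 311, 440, 501 and 381 CPM against 163, 218, 243 and 194, and Rgs1 at 282, 373, 311 and 354 against 140, 170, 180 and 161. The inhibitors of CDKs themselves did not follow. Cdkn1a (p21) had a mean log2 ratio of -0.16, Cdkn1b (p27) 0.24, and Cdkn2c (p18), at 12.8, 12.5, 5.84 and 9.33 against 48.5, 43.1, 32.1 and 34.9 CPM, -1.90. Cdkn1c (p57), known from resting stem cells, stood at 2.10 to 3.76 CPM in negative cells. Within 4000 to 8000 UMIs the list median was 0.09, with no member 1.5-fold higher.

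Of 32 listed stem cell genes, 20 reached 5 CPM. Of these 20, 17 were higher in each of the 4 libraries and 5 by 1.5-fold, with a median log2 ratio of 0.50. Among all 9064 genes at the list minimum 2261 were higher in each library and 1.65% by 1.5-fold. Ctla2a, a cysteine protease inhibitor of early progenitors, stood at 623, 717, 559 and 609 CPM against 325, 340, 325 and 287. Ly6a, which encodes Sca-1, a surface antigen of early progenitors, stood at 119, 118, 131 and 123 against 58.6, 67.4, 64.4 and 61.9 CPM. Thinned to 4000 UMIs, 31.8% to 34.0% of negative cells and 19.7% to 22.1% of other cells held an Ly6a UMI (40.3% to 43.7% and 36.5% to 38.5% unthinned). Hlf, a transcription factor of stem cells, had a mean log2 ratio of 0.72, Mecom, another, 0.39, and Procr, the stem cell marker EPCR, 0.91 at only 5.01 to 10.9 CPM. In the 4000 to 8000 UMI range the median of the list was 0.17, and no member reached 1.5-fold in all libraries. Values of this list within clusters, which were smaller than over all cells, are given below.

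Lineage genes pointed in more than one direction. Of 23 lymphoid priming genes 1 was 1.5-fold higher and 2 lower, near the 1.65% and 5.39% of all genes at the list minimum. Ccr9, a homing receptor of early lymphoid and dendritic precursors, stood at 21.8, 17.4, 14.6 and 25.9 CPM against 7.34, 7.34, 6.59 and 12.1. It was found in few cells, 4.03% to 7.40% of negative and 2.42% to 3.59% of other cells thinned to 4000 UMIs. Ly6d, an early marker of B lineage choice, stood at 3.11, 12.5, 2.09 and 18.7 against 12.5, 32.5, 15.6 and 32.4 CPM, and Il7r, the interleukin 7 receptor, at 17.7, 14.6, 5.42 and 19.1 against 30.4, 21.2, 19.1 and 38.4. Dntt, the DNA polymerase of antigen receptor joints, was near equal, with a mean log2 ratio of -0.23, as was Flt3, the receptor that marks LMPPs, at 250, 220, 214 and 223 against 212, 174, 204 and 190 CPM. Of 20 myeloid progenitor genes 1, Cebpa, was higher and 3, Elane, Ctsg and Mpo, were lower, and at 4000 to 8000 UMIs 0 of either list was called. Mpo, myeloperoxidase, stood at 45.8, 41.3, 45.5 and 33.4 against 123, 102, 127 and 88.5 CPM. Cebpa, the myeloid transcription factor, stood at 38.7, 33.5, 34.6 and 36.4 against 23.9, 20.6, 18.9 and 20.3 CPM.

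Growth and energy lists had few members past 1.5-fold. Nuclear oxidative phosphorylation genes stood lower in each library in 61 of 69, with a median of -0.24 and no member at 1.5-fold, and ribosome biogenesis genes in 22 of 39, with a median of -0.16 and no member at 1.5-fold. Among all 9064 genes 2950 stood lower in each library and 2261 higher. Ribosomal protein genes went the other way, 66 of 82 higher in each library with a median of 0.13, and they took a median of 41.8% to 43.7% of the UMIs of a negative cell against 38.8% to 40.6% of another. Of 17 glycolysis genes 2 were 1.5-fold higher and 0 lower. Gapdh and Ldha, glycolytic enzymes, had mean log2 ratios of -0.58 and -0.55, whereas Aldoa, another, stood at 319, 305, 320 and 277 against 171, 168, 204 and 152 CPM. Immediate early and dissociation genes, which cell handling is known to raise, were 1.5-fold higher in 8 of 30, with a median of 0.56, beside the same 1.65% of all genes. Interferon response genes were higher in 2 of 28, with Irf7, a master regulator of interferon genes, at 58.0, 73.3, 64.7 and 57.4 against 24.7, 36.4, 32.8 and 29.1 CPM. Medians within 4000 to 8000 UMIs were 0.20 for both of these lists, -0.11 for oxidative phosphorylation and -0.00 for ribosome biogenesis.

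**Figure D2:**
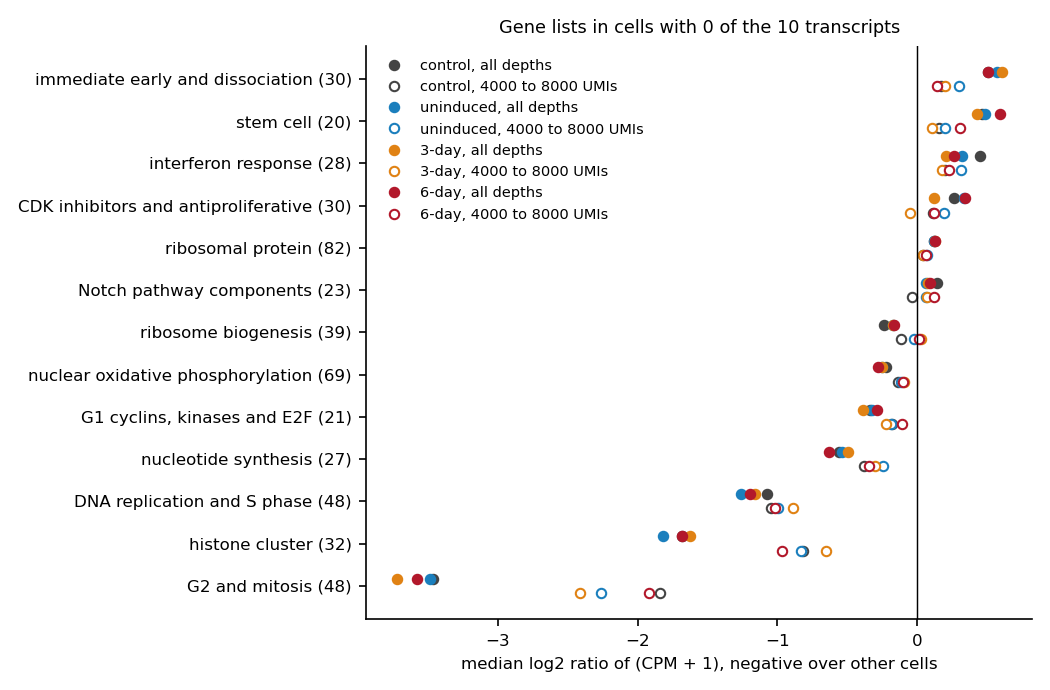
Median log2 ratio of (CPM + 1), negative over other cells, for 13 gene lists with the number of measured members in brackets. Each point is 1 library, filled for all depths and open for cells of 4000 to 8000 UMIs. The median over genes of their mean over libraries, which is not plotted, is -3.53 for G2 and mitosis over all depths and -2.19 in the narrow range. Those of the stem cell and immediate early lists go from 0.50 and 0.56 to 0.17 and 0.20.

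Markers of other cell types that a sort can carry differed in direction between libraries. In all, 25 negative cells fell in clusters of granulocyte-monocyte progenitor-like, neutrophil-like, early B-like and natural killer or T-like cells or in one led by Hba-a1, Hbb-bs and Hba-a2, against 300 other cells. The mature neutrophil and monocyte list had medians of 0.99, -1.58, 0.58 and -0.85, with 13 of 20 genes measured and sums of 1780, 1502, 5626 and 1591 CPM in negative cells against 915, 4266, 3936 and 3249 in other cells. The erythroid list, with 6 of 17 genes measured, had sums of 318 to 406 CPM against 269.6 to 1070.5. In the neutrophil-like cluster lay 3, 3, 4 and 2 of the negative cells. Their part in the sums was not tested, and the counts of genes without all those clusters were 74 higher and 306 lower.

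Cells were also grouped by Leiden clustering of all libraries together, and the share of negative cells was read in each cluster. The 10 genes of the rule and the listed S phase, G2 and mitosis and histone genes were left out of the variable genes. Other cell cycle genes, such as the G1 cyclins and E2F factors, were not, so these shares are not independent of the cycle. Of 2878 negative cells, 755 lay in a stem cell-like cluster with Hlf, Mecom, Procr, Ly6a and Pdzk1ip1 among its markers, where 74.1% (71.3 to 76.8) of cells of 4000 or more UMIs were negative. Another 757 lay in an unnamed cluster led by Cxcl2, Hist1h2bc and Atf3, with 70.9% (68.1 to 73.6) negative. Clusters led by Gria2, Ccr9 and Bank1 and by the interferon genes Ifit3, Cxcl10 and Ifit1 had 63.4% and 55.6%. A common lymphoid-like cluster led by Tmem108, Ly6d and Cox6a2, with the markers Il7r, Dntt, Rag2 and Ly6d, had 41.2%. The granulocyte-monocyte progenitor-like cluster had 2.25% (0.735 to 5.18), 5 of 222 cells, and clusters led by Ube2c, Fam64a and Cdkn3, by Tk1, Rrm2 and Tyms, and by Ly6d, Ebf1 and Il7r together with Ube2c had at most 0.787%. Ube2c, Tk1, Rrm2 and Tyms belong to the 10 genes of the rule, so the low shares in these last clusters follow from it. The cluster led by Ly6d, Ebf1 and Il7r had the same common lymphoid-like markers, with 0 of 430 cells negative. The 41.2% is therefore not the share of all common lymphoid-like cells. Depth was low in the stem cell-like cluster and that led by Cxcl2, with medians of 0.670 and 0.713 times those of their own libraries. The clusters led by Gria2 and by Ifit3 were low also, with 0.633 and 0.814 times. The common lymphoid-like cluster with 41.2% negative had 1.09 times and the granulocyte-monocyte progenitor-like cluster 1.88 times.

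The makeup of the negative cells differed between libraries. The stem cell-like cluster held 38.6% of negative cells in control and 21.6%, 17.4% and 22.6% in uninduced, 3-day and 6-day libraries. The cluster led by Cxcl2, Hist1h2bc and Atf3 held 14.6%, 32.9%, 41.3% and 23.3%, and that led by Slc39a1, Notch2 and Spry2 7.47%, 7.92%, 1.01% and 9.36%. Atf3, Hspa1a and Notch2 are themselves among the genes that differed between libraries below, so these shares describe the libraries and give no size of a cell type. Negative and other cells of the same cluster still differ by the genes of the rule, with which G2 and mitosis genes travel. A lower level of G2 and mitosis genes within a cluster therefore supports nothing further. The mean log2 ratio of their sum was -0.42 (-0.49 to -0.30 over libraries) in the stem cell-like cluster. It was -1.36 (-1.64 to -1.15) in the cluster led by Cxcl2 and -2.95 (-3.34 to -2.65) in that led by Gria2. The other clusters compared lay between -0.42 and -2.95. Over the same clusters the mean log2 ratio of the summed stem cell list ran from 0.10 to 0.30. Over all clusters together that list summed to 2744 to 3098 CPM in negative cells and 1746 to 2002 CPM in other cells. Its genes were not left out of the clustering, and the part of cluster makeup in its higher level was not tested.

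**Figure D3:**
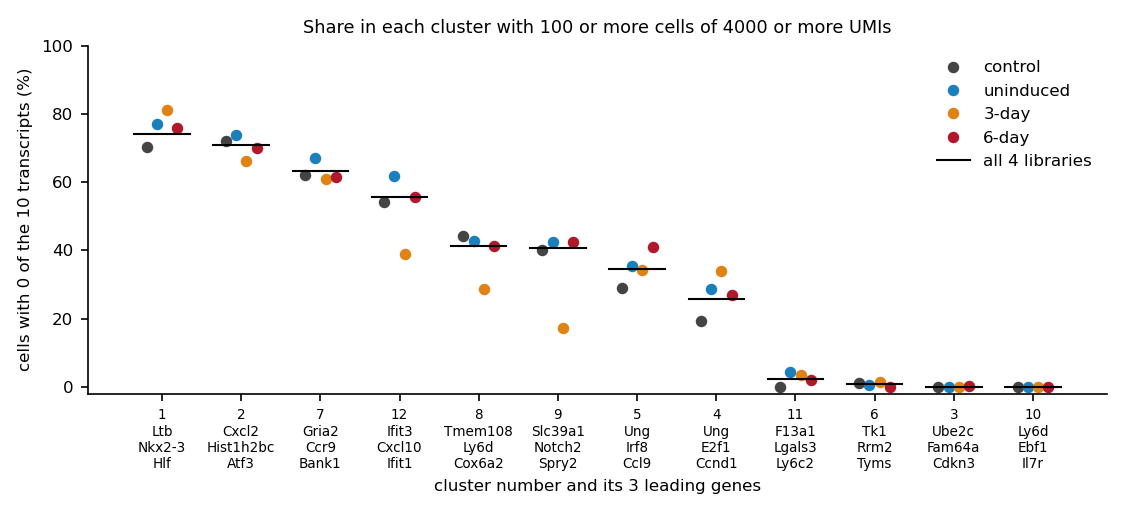
Share of negative cells, in percent of kept cells of 4000 or more UMIs, in each cluster with at least 100 such cells, labelled with its number and 3 leading genes. Points are the 4 libraries and bars the value over all, which runs from 74.1% in the stem cell-like cluster to 0 in the cluster led by Ly6d, Ebf1 and Il7r. Low shares in clusters led by Ube2c or Tk1 follow from the rule, which uses these genes.

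Rbpj, the gene under study (ENSMUSG00000039191, chromosome 5, 53466152 to 53657362, plus strand, protein coding), was lower in negative than in other cells after induction, and not before it. It stood at 20.6 CPM (16.9 to 25.0) in control negative cells, 11.9 (9.17 to 15.3) in uninduced, 172 (156 to 190) at 3 days and 119 (109 to 130) at 6 days. Other cells held 17.1 (15.3 to 19.2), 11 (9.37 to 12.9), 630 (612 to 648) and 620 (606 to 634) CPM. Negative over other cells the ratio was 1.20 (0.955 to 1.51) in control, 1.08 (0.796 to 1.46) in uninduced, 0.274 (0.247 to 0.303) at 3 days and 0.192 (0.175 to 0.210) at 6 days. Both induced libraries stood above control and uninduced in either kind of cell. Their labels name the induction but no level beside control. The labels state neither which part of Rbpj is missing in uninduced mice nor which end the induced transcript has, so the uninduced value measures no remaining function.

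The step came early in the count of the 10 genes. Cells with 1 of their UMIs held Rbpj at 208 CPM (181 to 238) after 3 days and 270 (246 to 295) after 6, with 2 at 498 (440 to 563) and 477 (431 to 526), and with 31 or more at 753 (714 to 794) and 883 (851 to 916). In control and uninduced libraries the intervals over the same ranges overlapped one another. After thinning to 4000 UMIs, 19.4% (15.6 to 23.6) of 3-day and 20.4% (17.5 to 23.5) of 6-day negative cells held an Rbpj UMI, against 48.5% (44.9 to 52.0) and 49.8% (47.0 to 52.7) of other cells. Unthinned shares were 25.2% and 24.4% against 59.2% and 62.2%. In cells with any, the median was 2 and 1 Rbpj UMIs in negative cells and 5 in other cells of both induced libraries.

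Narrower depth ranges and single clusters gave the following values. Between 4000 and 8000 UMIs, where negative cells were still the shallower ones, the Rbpj level was 163 against 477 CPM at 3 days and 107 against 509 at 6 days, log2 ratios of -1.55 and -2.24. At 4000 to under 6000 UMIs it was 142 against 337 CPM at 3 days and 82.8 against 902 at 6 days. At 6000 to under 8000 it was 186 against 536 and 138 against 313. Among cells of 8000 to under 12000 UMIs it stood at 229 (181 to 284) against 494 (471 to 517) at 3 days and at 198 (163 to 239) against 458 (440 to 476) at 6 days. So the level in negative cells stood higher in each deeper range, and the ratio differed between ranges. In the stem cell-like cluster at 6 days it stood at 56.9 (42.4 to 74.8) against 160 (119 to 211) CPM, and in the cluster led by Cxcl2 at 164 (139 to 193) against 641 (566 to 723). The stem cell-like cluster at 3 days was an exception, with 107 (76.6 to 146) CPM in 69 negative cells against 39.9 (10.9 to 102) in 16 other cells. In the cluster led by Ung, E2f1 and Ccnd1 the intervals overlapped at both times, with 228 (177 to 288) against 321 (282 to 363) at 3 days and 252 (201 to 312) against 309 (277 to 343) at 6 days. Barcodes of 10 to 100 UMIs held Rbpj at 291 (235 to 357) and 285 (255 to 318) CPM in the 2 induced libraries, above the level of negative cells, and the part of free RNA in these shares was not tested.

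Hes1 (ENSMUSG00000022528, chromosome 16, 30064384 to 30067796, plus strand, protein coding) stood higher in negative cells of all 4 libraries. Negative cells of control held 159 CPM (148 to 170), uninduced ones 27.6 (23.3 to 32.5), 3-day ones 62.2 (52.6 to 73.0) and 6-day ones 181 (169 to 194). Other cells held 62.9 (59.3 to 66.7), 13.6 (11.7 to 15.6), 32.2 (28.4 to 36.4) and 107 (101 to 113). Barcodes of 10 to 100 UMIs held Hes1 at 61.0 CPM (49.9 to 73.8), 19.4 (8.85 to 36.8), 34.8 (17.4 to 62.3) and 119 (99.6 to 141), with intervals that overlapped those of other cells, and the part of free RNA was not tested. In the negative cells the 6-day value was thus 1.14-fold (1.03 to 1.26) that of control, a log2 difference of 0.19, and in other cells the log2 difference was 0.76. At 3 days 10 cells held 51.0% of the Hes1 UMIs of negative cells.

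The higher Hes1 of negative cells did not hold in a narrower depth range in every library. Between 4000 and 8000 UMIs Hes1 stood at 168 against 116 CPM in control, 28.3 against 24.9 in uninduced, 57.2 against 59.1 at 3 days and 191 against 211 at 6 days. The ratio thus stood slightly below equality in both induced libraries. At 4000 to under 6000 UMIs the 6-day values were 201 (182 to 221) against 194 (164 to 228), and at 6000 to under 8000 they were 178 (158 to 200) against 220 (197 to 245). From 8000 to under 12000 UMIs negative cells were higher again. There Hes1 stood at 91.4 (62.5 to 129) against 35.9 (30.1 to 42.6) at 3 days and 124 (96.8 to 157) against 96.1 (87.9 to 105) at 6 days. Negative cells with and without an Rbpj UMI had similar Hes1, at 54.8 (38.1 to 76.1) and 64.9 CPM (53.5 to 77.9) at 3 days and 172 (148 to 197) and 185 (170 to 200) at 6 days. Among other cells, those with an Rbpj UMI held less Hes1, at 22.3 (18.4 to 26.9) against 49.8 CPM (41.9 to 58.8) at 3 days and 91.7 (85.4 to 98.3) against 140 (129 to 152) at 6 days, and they were also deeper, with medians of 10658 against 8528 and 10793 against 8331.5 UMIs. Of 23 Notch pathway components 0 were 1.5-fold apart in either direction in all 4 libraries, near the 1.65% higher and 5.39% lower of all genes at the list minimum. A call needed all 4 libraries, so a gene such as Rbpj, lower only after induction, could not be counted. The mean log2 ratio was 0.07 for Notch1 and 0.11 for Notch2.

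**Figure D4:**
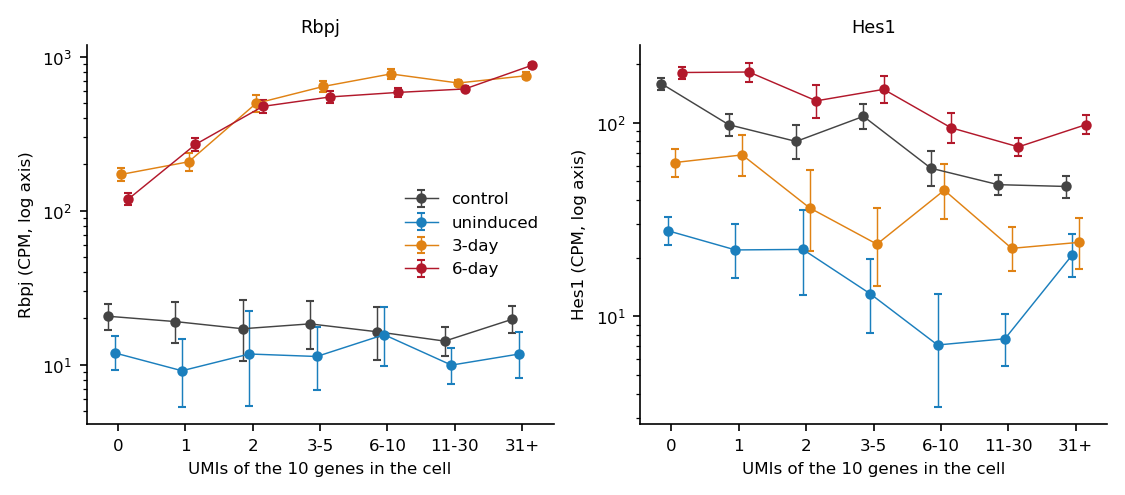
Rbpj (left) and Hes1 (right) in CPM on a log axis by the number of UMIs of the 10 genes in the cell, with exact Poisson 95% intervals, for the 4 libraries. Negative cells are at 0. In the induced libraries Rbpj stands at 172 and 119 CPM at 0 and at 753 and 883 at 31 or more, and Hes1 goes from 159 CPM at 0 to 46.8 at 31 or more in control.

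Among negative cells alone, uninduced and control libraries were compared at 20 CPM or more in either. Of 5030 genes 24 (0.477%) were 1.5-fold higher and 71 (1.41%) lower in uninduced cells, 1.89% either way. The highest included immediate early and stress genes. Atf3, a stress-induced transcription factor, stood at 79.1 against 15.8 CPM, a 5.02-fold difference (3.95 to 6.45), and was 1.62 higher on the log2 scale in other cells also. Klf2, a factor of lymphocyte quiescence, stood at 638 against 190 CPM, 3.37-fold (3.13 to 3.62), and Hspa1a, an HSP70 chaperone, at 63.8 against 13.6, 4.68-fold (3.61 to 6.15). Lgmn, Klf6, Klf4, Cxcl2, Fosb, Phlda1 and Maff made up the rest of the 10 highest, with log2 differences of 0.97 to 1.51. Hes1 was the lowest, at -2.48, followed by Dennd5b at -1.31. Gm10263, Xlr4a, 2610035D17Rik, Vps8, Snhg9, Muc13, Rps27rt and Pomgnt2 completed the 10 lowest. Near-identical copies of ribosomal genes such as Gm10263 and Rps27rt can share reads, so their values are uncertain. On the immediate early list 13 of 31 members were higher and 0 lower, beside 1.05% higher and 3.94% lower of the 9009 genes at 5 CPM or more. Under TMM scaling, a trimmed mean of log ratios, 37 genes were higher and 36 lower, so the excess of lower genes moved with the scaling.

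At 3 days against uninduced, 54 of 4903 genes (1.10%) were 1.5-fold higher and 92 (1.88%) lower, 2.98% either way. After Rbpj, 14.4-fold higher (11.1 to 19.1) with 44.8% of its 3-day UMIs in 10 cells, heat shock genes led. Hspa1a stood at 548 against 63.8 CPM, 8.59-fold (7.62 to 9.71), Hspa1b, its twin gene, at 65.5 against 9.47, and Hsph1, an HSP110 chaperone, at 41.7 against 10.8. Hspa1a and Hspa1b are near-identical, so reads can pass between them. Dnajb1, an HSP40 cochaperone, stood at 539 against 276 CPM. Cxcl2, Nsun6, 2610035D17Rik, Bcs1l and Gm10138 had log2 differences of 0.84 to 1.06. Left out of the naming, though not of the 54 and 92, were 14 genes for which 10 cells held 50% or more of the UMIs. Among them were Hes1 (2.25-fold, 1.78 to 2.85) and neutrophil genes such as S100a8, with 98.9% of its UMIs in 10 cells. Without the clusters of other cell types, 40 of the 54 higher and 82 of the 92 lower genes were still called. Of 13 mature neutrophil and monocyte genes at the list minimum, 13 were higher with those clusters and 4 without.

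The lowest at 3 days included H2-Aa and Cd74 of antigen presentation and the receptor gene Notch2. H2-Aa, an MHC class II chain, stood at 31.7 against 78.4 CPM, 0.405-fold (0.313 to 0.518), and Cd74, its chaperone, at 105 against 223. Of 9 MHC class II genes 3 were lower and 0 higher, beside 5.13% lower and 3.04% higher of the 8966 genes at 5 CPM or more. Notch2, a Notch receptor, stood at 13.4 against 33.9 CPM, 0.394-fold (0.262 to 0.576), with 33.7 in control and 35.7 at 6 days, and Socs3 at 43.8 against 104. Gm28875, Spry2, Nmrk1, Evi2a, Irgm1 and Slc39a1 had log2 differences of -1.41 to -1.04. Of 22 Notch pathway components 1 was higher and 2 lower, with a median of -0.02. Of 15 measured histone genes 7 were higher.

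At 6 days against uninduced, 46 of 4863 genes (0.946%) were 1.5-fold higher and 36 (0.740%) lower, 1.69% either way. Rbpj was 9.96-fold (7.65 to 13.2) and Hes1 6.55-fold (5.48 to 7.87) higher. Cxcl2, a chemokine, stood at 207 against 89.0 CPM and Mgst2, a leukotriene enzyme, at 41.8 against 18.2. 2610035D17Rik, Nme2, AA467197, mt-Atp8 and Rpl36-ps3 followed at 0.88 to 1.08, of which Nme2 and Rpl36-ps3 have close copies or neighbours that can share reads. The immediate early genes were on the other side, with 12 of 30 list members lower and 0 higher, beside 2.10% lower and 2.35% higher of the 8918 genes at 5 CPM or more. Klf2 stood at 223 against 638 CPM, 0.349-fold (0.324 to 0.375), Klf6 at 138 against 428, Fosb at 130 against 293, and Fos, an AP-1 subunit, at 1035 against 2095. Hspa1a at 16.1 CPM was near the 13.6 of control.

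Against control, the 6-day negative cells had 14 of 5013 genes (0.279%) higher and 49 (0.977%) lower, 1.26% either way. The median of all genes compared was -0.10 here, and under TMM scaling it was -0.00, with 28 higher and 17 lower, so the excess of lower genes moved with the scaling. Cxcl2 was 5.91-fold (5.03 to 6.97) and Rbpj 5.76-fold (4.66 to 7.16) higher, and Phlda1, Atf3, Nfkbia, Zc3h12a, Maff, Hexim1, Trib1 and Ifi27l2a had log2 differences of 0.76 to 1.31. Nfkbia, the inhibitor that NF-kB itself induces, stood at 323 against 178 CPM. Xpnpep1, a peptidase, was lowest at 12.6 against 26.7 CPM, -1.02 on the log2 scale, with -0.05 in other cells. E130012A19Rik, Crot, Dennd5b, Socs3, Xlr4a, Bop1, Vldlr and Crnkl1 had -0.94 to -0.77. Of 9 MHC class II genes 0 were higher and 0 lower, beside 1.26% higher and 3.53% lower of the 9040 genes at 5 CPM or more. The 6-day and uninduced comparisons share libraries with those before, so their values are not independent.

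**Figure D5:**
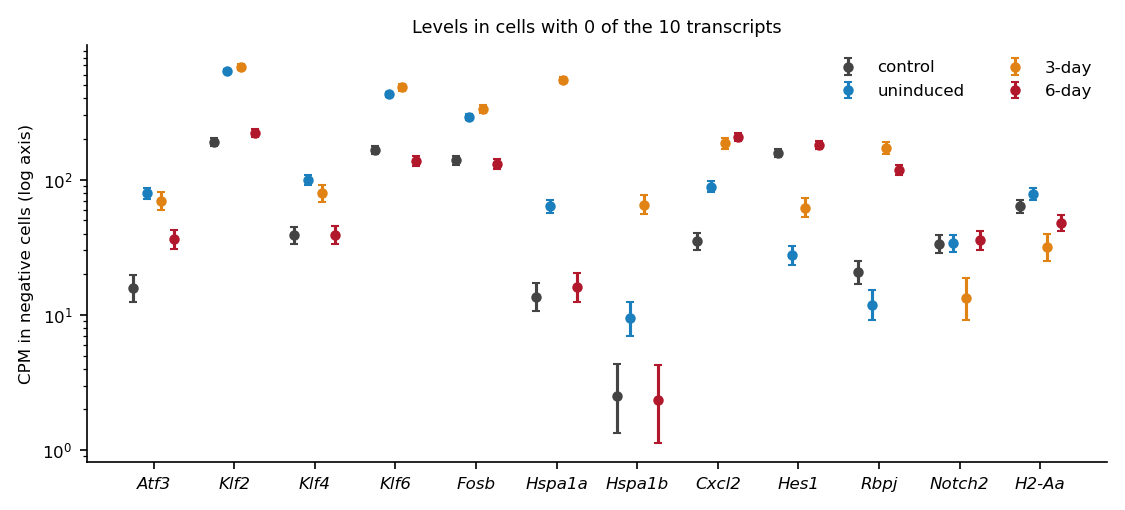
Levels of 12 genes in negative cells in CPM on a log axis, with exact Poisson 95% intervals, by library. Klf2, Klf4, Klf6 and Fosb are higher in the uninduced and 3-day libraries than in the control and 6-day ones, Hspa1a and Hspa1b are highest at 3 days, and Hes1 is lowest in uninduced cells.

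The difference of the log2 changes in negative and in other cells, which was not tested, was widest for neutrophil genes carried by few cells, such as S100a8 (-2.57 for uninduced against control). Beyond these, H2-Aa was 1.28 lower on the log2 scale at 3 days than in uninduced negative cells and 0.40 lower in other cells, Rfx7, an RFX family transcription factor, 0.94 and 0.14 lower, and Trib1, a pseudokinase, 0.77 and 0.15 higher at 6 days against control. Cd320, the transcobalamin receptor, was 0.35 higher in uninduced than in control negative cells and 0.29 lower in other cells.

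The negative cells also varied among themselves. Of 3639 genes with a mean of 0.1 UMI or more at 4000 UMIs, 90 had a variance over 1.5 times the mean and 43 over 2 times in all 4 libraries, and the median of the genes was 1.02. The neutrophil genes S100a8, S100a9, Camp, Ngp, Wfdc21 and Lcn2 led, with S100a8 found in 4.98% to 13.1% of negative cells and at means of 2.92 to 11.7 UMIs. Next came Malat1, Lyz2, Cxcl2, Actb, Ccl4, Ccl3, Wfdc17 and Fos. Cxcl2 was found in 4.51%, 9.76%, 17.1% and 16.8% of negative cells and had a variance over mean of 6.21 to 12.4. Dntt, found in 67.4% to 73.2% of thinned negative cells, had 3.60 to 4.67, and Cd74 had 3.32 to 15.7. S100a8 was found in 4.47% to 12.8% of other cells, and the part of free RNA in these shares was not tested.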

How the data were processed

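Transcriptomes of single sorted LMPPs were measured in 4 libraries, 1 per group. The authors deposited UMI counts for every barcode and log2 expression tables for the cells they kept. Here the counts gave every level, and the log2 tables deposited by the authors served only to say which barcodes were kept. Seurat and the mm10 build are named in the submitters' processing notes without a role, and the aligner, counter and filters are not given in the sources used here. Nothing in the labels says that doublets were removed, and no doublet caller was run.

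UMIs were summed over the cells of each kind in a library, scaled to CPM and compared as log2 of CPM + 1. Exact Poisson intervals were used for levels, conditional exact intervals for ratios and exact Clopper-Pearson intervals for shares. Genes were compared at 20 CPM or more and lists at 5 CPM or more, and a gene was counted as higher or lower at 1.5-fold. Cells were thinned to 4000 UMIs at random with a fixed seed for shares. Clusters were made with scanpy 1.11.5 and leidenalg 0.10.2 on 2000 variable genes, 30 components and 15 neighbours at resolution 1, and named from at least 3 markers of a list. Calculations used Python 3.11.15, numpy 2.4.6, scipy 1.17.1 and pandas 2.3.3, figures matplotlib 3.10.9, and the scripts were tested on simulated data. Of the files' 27998 gene identifiers, 121 carried a symbol shared with another. At most 17 kept barcodes and 3 negative ones were shared by a pair of libraries.

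The members and gene lists were chosen with earlier results of these data known. Named were the 15 highest and 15 lowest genes among those 1.5-fold apart the same way in all 4 libraries, up to 4 members each way per list, and between groups the 10 highest and 10 lowest and up to 2 members each way per list. Sex-linked, haemoglobin and antigen receptor genes were left out, as were genes for which 10 cells held 50% or more of the UMIs. Rbpj, Hes1 and the 10 genes of the rule were always included. A few genes that the rule names are not reported here. Members that did not reach 1.5-fold, Mxd4, Gins3, and the genes named for their variation or for a difference between negative and other cells in a group comparison were chosen after their values were seen.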

Additional observations from a re-analysis of the deposited data

Results flagged for a closer look

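Rbpj was higher in negative than in other cells of the control and uninduced libraries, with log2 ratios of 0.25 and 0.11, and lower in those of the induced libraries, with -1.86 at 3 days and -2.37 at 6 days. The difference between libraries was not tested. The control and uninduced ratios had intervals that included equality.

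The mature neutrophil and monocyte list had median log2 ratios, negative over other cells, of 0.99 for control, -1.58 for uninduced, 0.58 at 3 days and -0.85 at 6 days. The libraries went in opposite directions, and this was not tested. S100a8 UMIs of 3-day negative cells lay to 98.9% in 10 cells.

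Cells under the minimum depth, which enter no comparison, held Rbpj at 191 CPM (155 to 233) in the 152 6-day cells with 0 of the 10 transcripts, against 10.1 (2.74 to 25.8) in 113 control cells. In the 87 such cells at 3 days Rbpj stood at 13.8 CPM (3.76 to 35.3).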

How the results depend on the processing

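No paired analysis was possible because 1 library stood for every group and none shared a replicate number. Negative and other cells were always compared within a library. The share of negative cells in control, uninduced, 3-day and 6-day libraries was 40.1%, 44.0%, 41.0% and 44.0% after thinning, 18.8%, 20.3%, 20.2% and 21.9% with a minimum of 6000 UMIs, 46.1%, 49.98%, 45.4% and 49.6% with up to 1 UMI of the 10 genes, and 6.65%, 8.51%, 7.44% and 7.16% with 9 further cycle genes limited. Genes higher in negative cells numbered 2 at 4000 to 8000 UMIs, 25 above 6000, 40 at 50 CPM or more and 178 with no CPM minimum. Lower genes numbered 110 at 4000 to 8000 UMIs, 153 at 50 CPM and 553 with no minimum. Leaving out each library gave 90 to 108 higher and 322 to 359 lower, since 3 libraries then had to agree.

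For uninduced against control, higher genes numbered 52 above 6000 UMIs, 37 under TMM scaling and 395 with no CPM minimum, and lower genes 143, 36 and 790, with 43 under median ratio scaling, 22 at 50 CPM and 44 with a pseudocount of 5. For 3 days against uninduced, higher genes numbered 106 above 6000 UMIs, 19 at 50 CPM and 764 with no minimum, and lower genes 191, 24 and 1150, with 56 at up to 1 UMI of the 10 genes and 49 with a pseudocount of 5. For 6 days against uninduced, higher genes numbered 94, 27 and 620 under the same 3 settings, and lower genes 104, 19 and 567, with 23 at up to 1 UMI and 23 with a pseudocount of 5. For 6 days against control, higher genes numbered 42, 7 and 462, with 28 under TMM and 28 under median ratio scaling, and lower genes 148, 6 and 800, with 17, 17, 25 at up to 1 UMI and 21 with a pseudocount of 5. The cause of these shifts was not tested.

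At 4000 to 8000 UMIs the list medians of B lineage (-0.0309), dendritic cell (-0.0047) and Notch target genes (0.0547) turned sign, as did the Hes1 ratio at 3 days (-0.0473) and 6 days (-0.14). So did the p53 target list (0.0513 to -0.0284) and uninduced Rbpj (11.9 against 12.8 CPM), both near equality over all depths. The alternatives for Rbpj, Hes1 and list scaling were chosen after seeing the data. Negative cells had medians of 5431.5 to 5738.5 UMIs, which limits what can be seen of genes at few CPM.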

Other observations

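Cells between the negative cells and the deep cycling cells gave graded values in control for the stem cell list. The S phase list was graded there up to 3 to 5 UMIs of the 10 genes. In control, the DNA replication and S phase list summed to 1746 CPM in cells with 0 UMIs of the 10 genes, 2570 with 1, 3402 with 2, 4433 with 3 to 5 and 4419 with 6 or more. The stem cell list summed to 3084, 2701, 2454, 2084 and 1788 CPM over the same ranges. Hes1 in the 6-day library was not steadily graded. It stood at 181 CPM with 0, 182 with 1, 129 with 2 and 148 with 3 to 5 of these UMIs. With 6 to 10 it stood at 94.0, with 11 to 30 at 74.9 and with 31 or more at 97.4 CPM.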
